A study of Mus musculus with 6 samples.

Results

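The genes described here are 34 genes of the unfolded protein response and of the protein folding machinery of the endoplasmic reticulum (ER), measured in epididymal white fat, the fat pad beside the epididymis. They were chosen by name from what is known of the pathway, at a time when earlier results of these data were known. Each was read from its brightest probe set (a set of probes for 1 transcript) over the 6 arrays, leaving out x_at sets where another set existed. An x_at set can also bind related transcripts. All 34 were on the array under a single gene symbol, out of 18193 such genes, and all 34 were bright enough to be tested, among 11201 tested genes. The mice were males of 10 weeks on a mixed C57BL6;129Sv background, and each array held RNA of 1 animal. In 3 mice 1 copy of Pparg, the nuclear receptor gene that drives fat cell formation, was the allele named ldi, which the labels link to lipodystrophy. These are written Pparg ldi/+. The other 3 were wild-type litter-matched controls with no ldi copy. Litter was not part of the main comparison. The sequence change behind ldi was not stated in the labels. The labels name separate animals but not whether pads were dissected together, so p-values measure the spread between these mice.

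Secreted and membrane proteins fold in the ER with the help of chaperones and of enzymes that form disulfide bonds. When unfolded proteins accumulate there, 3 sensors in the ER membrane respond: ATF6 and IRE1 (with its target XBP1) raise chaperones and degradation factors, and PERK slows translation while allowing that of ATF4, which switches on CHOP (Ddit3) and other stress genes. ATF4 is also reached by kinases that respond to other stresses, such as lack of amino acids, which is why its targets are treated apart here. Fat cells secrete large amounts of hormone such as adiponectin, and macrophages and antibody-producing cells also have a large secretory apparatus.

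Many chaperone genes carry an ER stress response element in their promoters. Promoter sequences were not used to choose the members. The members are known genes of this response, however, so their share with the element is not independent of the choice. RefSeq promoter windows of build GRCm38.p6, which run from 250 bases before to 50 bases after a gene's start, were found for 30 of the 34 members; Manf, Hyou1, Derl1 and Atf6 had no entry. The element, CCAATNNNNNNNNNCCACG, was searched on both strands together with its second form, ATTGGNCCACG. An exact match to the first form lay in the windows of 8 of the 30 members, against 0.137% of 27025 genes with a window. Of the 9 chaperones and co-chaperones with a window, 6 held it. The second form was found in 2 members, Dnajb11 and Herpud1, against 0.0444% of genes. The 9 matches to the first form are printed to show how the fixed ends (capitals) frame a variable middle, each read 5′ to 3′ in the direction of the element, with its place relative to the gene's start.
Hspa5, from -65 to -47: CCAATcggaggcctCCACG
Hsp90b1, from -212 to -194: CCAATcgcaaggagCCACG
Hsp90b1, from -107 to -89: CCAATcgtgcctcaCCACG
Calr, from -162 to -144: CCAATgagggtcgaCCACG
Canx, from -145 to -127: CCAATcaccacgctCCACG
Dnajc3, from -105 to -87: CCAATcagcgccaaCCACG
Creld2, from -126 to -108: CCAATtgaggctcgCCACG
Pdia6, from -98 to -80: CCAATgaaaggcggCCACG
Syvn1, from -44 to -26: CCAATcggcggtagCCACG

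Those in Calr and Creld2 and the second of Hsp90b1 run against the gene. 3 further motifs were searched on both strands: the XBP1-type core TGACGTGG, the core TTGCATCA of the C/EBP-ATF response element through which ATF4 acts, and the cAMP response element TGACGTCA. The end CCACG of the first element can overlap the XBP1-type core, which was in none of the members (0 of 30) and in 0.714% of genes. The C/EBP-ATF core was in 3 members, Atf3, Chac1 and Herpud1, against 1.03% of genes, and the cAMP element in 1, Ppp1r15a, against 2.03%. A match is a stretch of letters and does not show that a factor binds.

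**Figure D1:**
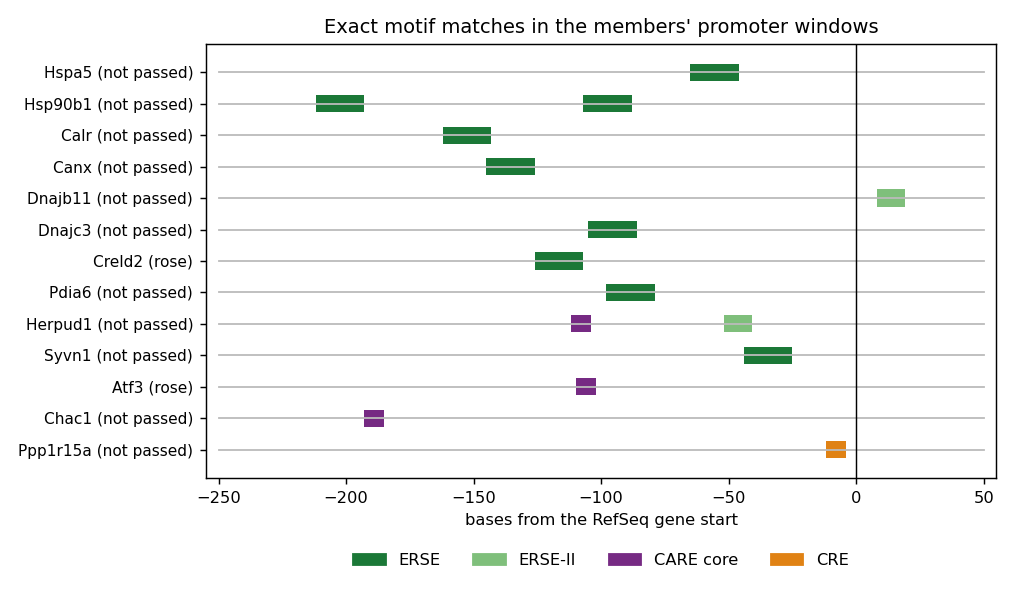
Positions of exact motif matches in the promoter windows of the 13 members that hold any, on a horizontal axis of bases from the RefSeq gene start, with the result of each gene's comparison in brackets. Matches of the first form of the ER stress response element lie between -162 and -26, apart from 1 of the matches in Hsp90b1. The second form lies from -52 to -42 in Herpud1 and from 8 to 18 in Dnajb11. Creld2 and Atf3 are the genes shown that rose.

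The upstream bases of Hspa5, Creld2, Atf3 and Herpud1 are shown because these are the best-known target of the element, the member that both held the element and rose, the member with the largest rise, and the member that held both an ER stress element and a C/EBP-ATF core. Capitals mark the fixed letters of the motifs, in the direction of the gene, and each run ends at the base before the start.
Hspa5, chr2:34771840-34772089, + strand: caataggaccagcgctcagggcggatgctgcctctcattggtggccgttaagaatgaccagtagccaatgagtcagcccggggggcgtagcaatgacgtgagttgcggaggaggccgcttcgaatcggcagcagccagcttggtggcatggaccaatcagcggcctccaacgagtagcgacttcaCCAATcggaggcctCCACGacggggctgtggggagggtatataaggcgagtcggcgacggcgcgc
Creld2, chr15:88819396-88819645, + strand: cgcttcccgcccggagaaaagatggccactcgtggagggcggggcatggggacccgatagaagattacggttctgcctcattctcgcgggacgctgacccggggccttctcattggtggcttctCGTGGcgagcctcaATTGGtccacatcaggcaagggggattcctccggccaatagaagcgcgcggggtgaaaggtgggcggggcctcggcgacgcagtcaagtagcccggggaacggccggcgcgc
Atf3, chr1:191183334-191183583, - strand: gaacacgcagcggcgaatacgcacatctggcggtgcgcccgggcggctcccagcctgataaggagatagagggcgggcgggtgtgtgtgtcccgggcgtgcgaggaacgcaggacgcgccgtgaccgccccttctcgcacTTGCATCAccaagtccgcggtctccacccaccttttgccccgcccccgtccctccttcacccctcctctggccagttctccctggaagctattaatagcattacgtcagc
Herpud1, chr8:94386279-94386428, + strand: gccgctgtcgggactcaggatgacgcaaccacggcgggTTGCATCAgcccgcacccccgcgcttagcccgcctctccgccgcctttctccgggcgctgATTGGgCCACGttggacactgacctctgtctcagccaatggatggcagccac

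Before the members are compared, the arrays and the cells in the pads are described. Trimmed means of the deposited signals lay between 201 and 236, and the 3′ to 5′ signal ratio of actin between 1.10 and 1.13. Pparg itself fell 2.56-fold with no overlap between the genotypes. Rose and fell follow the rule given below, by which 16.3% of all tested genes rose and 16.4% fell. Adipocyte markers were present on all 6 arrays. Their summed signal over 11 genes was 117385 to 129183 in Pparg ldi/+ and 205928 to 231394 in wild type, and 8 of the 11 fell. All 18 macrophage markers rose, with a sum of 136510 to 140722 against 48348 to 64144. Of 11 plasma cell markers, 3 rose of 9 tested, with sums of 16984 to 21101 and 14985 to 21359. Most of each sum was Ighm, which did not pass (log2 -0.03). Jchain rose 3.84-fold, Sdc1 2.30-fold and Prdm1 1.62-fold, and the other 6 tested did not pass. The 17 epididymal markers summed to 26854 and 36022 in Pparg ldi/+ arrays 1 and 2, to 2548 in array 3 and to 2303 to 2764 in wild type. The epididymis secretes much protein, so a fit in which array 3 alone stands for Pparg ldi/+ is given as well. Of the other lists, 7 of 10 endothelial and 5 of 8 mesothelial markers fell, 3 of 11 fibroblast markers rose and 2 fell, 2 of 3 tested B cell markers rose, and the 1 tested T cell marker, Thy1, which is also on the fibroblast list, did not pass. The 6 other T cell markers on the array were too dim to be tested; of these Cd3d, Cd3g and Cd4 read higher in every Pparg ldi/+ array than in any wild-type array, by 2.32, 1.67 and 2.41 on the log2 scale. How far these cell types take part in the differences was not tested. In a whole fat pad, fewer cells of a type and less RNA per cell cannot be told apart.

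The comparison of the genotypes asks which parts of the response differ when 1 Pparg copy is ldi. In Pparg ldi/+ fat 8 of the 34 members rose and 1 fell. The rises were those of the transcription factors Atf3, Ddit3 and Atf4, the stress-induced ER proteins Sdf2l1, Creld2 and Manf, the mannosidase-like Edem2 and the sensor Atf6. The fall was that of Sesn2. Most of the chaperones and all 5 disulfide enzymes did not pass. Rose and fell here mean a limma adjusted p under 0.05 (Benjamini-Hochberg over all 11201 genes). By that rule 16.3% of all tested genes rose and 16.4% fell, so the share of members that rose, 23.5%, was somewhat above the background and the share that fell, 2.94%, below it. The median log2 difference was 0.08 over the members and -0.00 over all tested genes. Every Pparg ldi/+ array lay above every wild-type array in 11 members (32.4%, against 23.6% of all genes) and below in 3 (8.82%, against 24.0%).

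**Figure D2:**
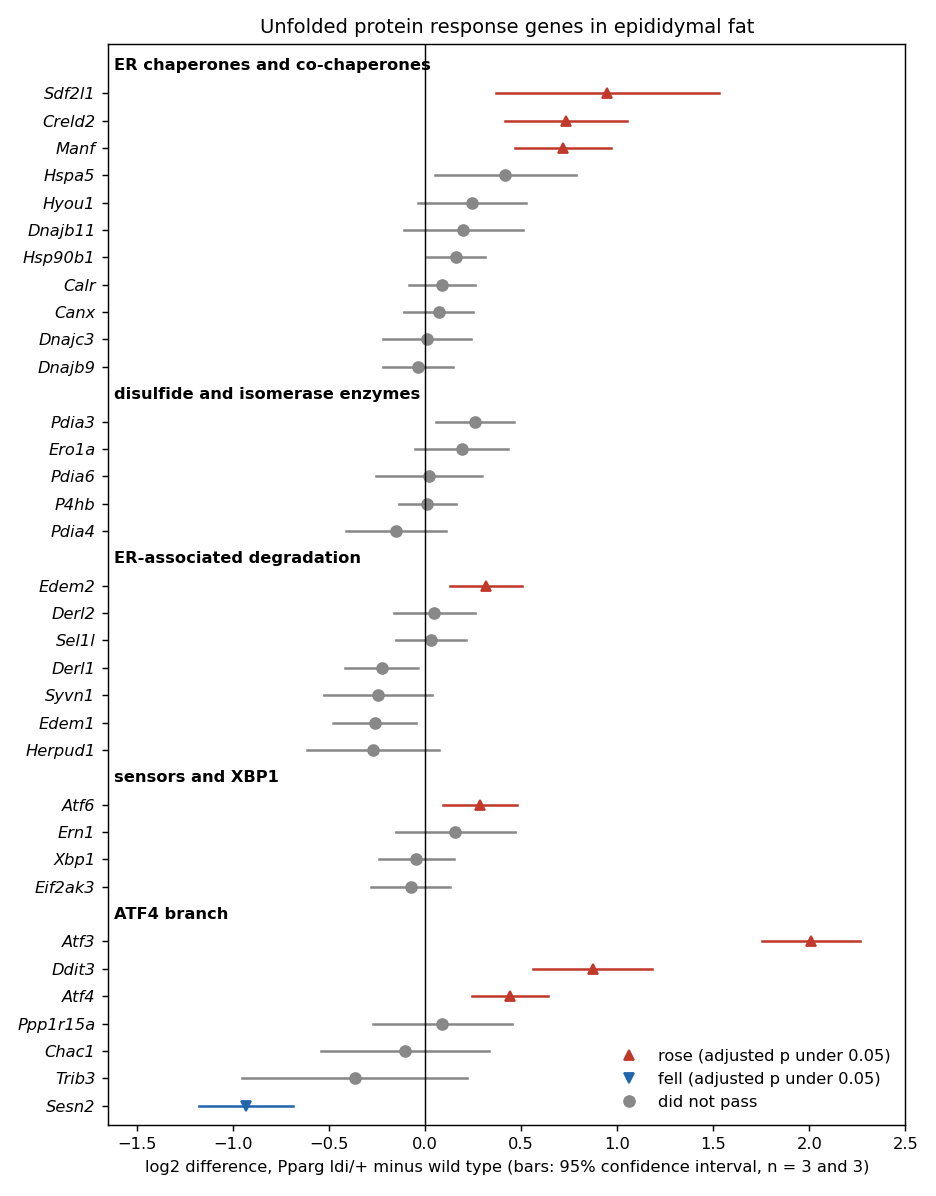
Log2 difference between Pparg ldi/+ and wild type for each of the 34 members, grouped by role, with 95% confidence intervals from limma (3 arrays in each group). Triangles mark the 8 genes that rose and the 1 that fell, and the difference of Atf3, at 2.01, is the largest.

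Among the 11 ER chaperones and co-chaperones, 3 rose, none fell (0), and the median log2 difference was 0.20. The share that rose was 27.3%, while 16.3% of all tested genes rose and 16.4% fell. Whether a role differs from those shares was not tested. Sdf2l1 encodes an ER protein that works with the co-chaperone DNAJB11. Its scaled signal (arrays brought to a trimmed mean of 500) was 971, 981 and 957 in Pparg ldi/+ arrays 1 to 3 and 741, 509 and 303 in wild-type arrays 1 to 3. The groups did not overlap, and the wild-type arrays were far more spread than the mutant ones. The log2 difference was 0.95 (1.93-fold, SE 0.255, limma adjusted p = 0.0206). Here and below, 32 was added to each scaled signal before log2 was taken, so that changes of dim genes come out too small.

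Manf, a small protein of the ER lumen that stressed cells also secrete, had signals of 3267, 3234 and 3303 in Pparg ldi/+ and 2215, 2095 and 1659 in wild type. All mutant arrays were above all wild-type arrays, and the rise was 1.64-fold (log2 0.72, 95% confidence interval 0.47 to 0.97, limma adjusted p = 0.00127). Creld2, a secreted ER stress-induced protein with disulfide isomerase activity, had signals of 1025, 1119 and 1033 against 777, 585 and 532. It rose 1.66-fold with no overlap between the groups (log2 0.73, interval 0.42 to 1.05, adjusted p = 0.00392).

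Hspa5 encodes BiP, the main chaperone of the ER lumen and the partner that holds the sensors inactive. Its signal was 10840.2, 11016 and 10364 in Pparg ldi/+ and 9244, 9441 and 5928 in wild type. Every mutant array was above every wild-type array, but wild-type array 3 stood far below the rest. The log2 difference of 0.42 (interval 0.05 to 0.78) did not pass (adjusted p = 0.0787). It passed without wild-type array 3, at 0.20 (adjusted p = 0.0455), without wild-type array 2, at 0.53 (adjusted p = 0.0498), and with unscaled signals, at 0.47 (adjusted p = 0.0372). Its other probe sets differed by 0.40 and 0.15.

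The other chaperones did not pass. Hsp90b1, which encodes the ER form of HSP90, differed by 0.16 (adjusted p = 0.102), and it passed with quantile normalisation, at 0.18 (adjusted p = 0.0493). Its other probe set, nearly as bright, differed by -0.0004. Calr and Canx, the lectin chaperones that hold newly made glycoproteins, differed by 0.09 (interval -0.09 to 0.26) and 0.07 (interval -0.11 to 0.25). These intervals exclude changes as large as those of Manf or Creld2. Hyou1, an exchange factor for BiP, was at 0.24 and passed only without Pparg ldi/+ array 1, at 0.37 (adjusted p = 0.0491). The J-domain co-chaperones of BiP were at 0.20 for Dnajb11, 0.01 for Dnajc3 and -0.04 for Dnajb9. The intervals of Dnajc3 (-0.22 to 0.24) and Dnajb9 (-0.22 to 0.15) span 0. Of the 8 members with the ER stress response element, 1 rose, Creld2, with a median of 0.08 over the 8 and a range of -0.25 to 0.73. Of the 20 members with a window and neither form, 5 rose and 1 fell. Of the 4 with no window, 2 rose. Among all tested genes 16.3% rose, and whether these small sets differ from that share or from each other was not tested.

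None of the 5 disulfide and isomerase enzymes passed (0 of 5), and their log2 differences lay between -0.15 and 0.26. Over all tested genes 16.3% rose and 16.4% fell. Pdia3, the isomerase that works with calnexin and calreticulin, came nearest, with signals of 7936, 7807 and 7929 in Pparg ldi/+ and 7520, 6367 and 5981 in wild type. The groups did not overlap, and the difference was 0.26 (adjusted p = 0.0548). It passed without wild-type array 1 (0.35, adjusted p = 0.00838), with quantile normalisation (0.31, adjusted p = 0.0148) and among the brighter 30% of probe sets (adjusted p = 0.0491). P4hb, the founding member of the disulfide isomerases, was at 0.01 with an interval of -0.14 to 0.16. Pdia6 was at 0.02, Pdia4 at -0.15 and Ero1a, the oxidase that recharges the isomerases, at 0.19.

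**Figure D3:**
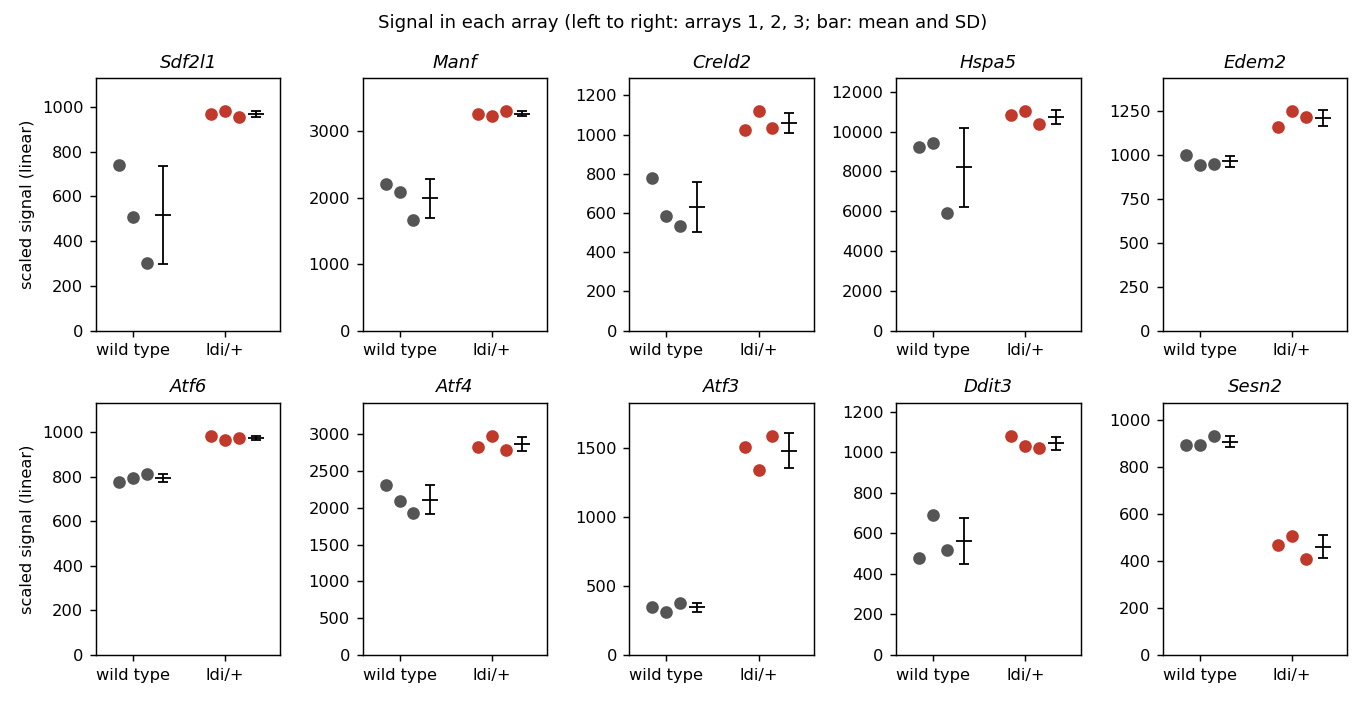
Scaled signal (linear axis from 0) in each array for the 9 members that passed and for Hspa5, with wild-type arrays in grey, Pparg ldi/+ arrays in red, and the mean and SD of 3 arrays beside them. In all 10 genes the groups do not overlap; the wild-type arrays of Sdf2l1, from 303 to 741, and of Hspa5, from 5928 to 9441, are the most spread.

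Of the 7 genes of ER-associated degradation, which returns misfolded proteins to the cytosol for destruction, 1 rose and none fell (0). Their median was -0.23. The share that rose, 14.3%, was near the 16.3% of all tested genes, of which 16.4% fell. The member that rose was Edem2, which starts the mannose trimming that marks a glycoprotein for disposal. Its signal was 1162, 1249 and 1219 in Pparg ldi/+ and 1001, 945 and 949.7 in wild type. The groups did not overlap, and the rise was 1.25-fold (log2 0.32, SE 0.0833, adjusted p = 0.0188). The call ended without Pparg ldi/+ array 2 (0.29, adjusted p = 0.0658) and without array 3 (0.31, adjusted p = 0.0641).

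4 degradation genes pointed the other way without passing, in the probe set read. Edem1, which also acts on mannose-trimmed proteins, had signals of 1822, 1951 and 1871 in Pparg ldi/+ and 2422, 2398 and 1997 in wild type, with every mutant array below every wild-type array. Its difference was -0.26 (interval -0.48 to -0.05, adjusted p = 0.0623). It passed with the mean of its probe sets (-0.36, adjusted p = 0.0142), with array weights (-0.30, adjusted p = 0.0278) and without wild-type array 3 (-0.35, adjusted p = 0.0127). Derl1, a channel component, was at -0.23 (adjusted p = 0.0681) and passed without wild-type array 2 (-0.31, adjusted p = 0.00960) and with array weights (-0.23, adjusted p = 0.0455). Its 3 other probe sets differed by 0.09, -0.05 and -0.26. Syvn1, the ubiquitin ligase HRD1 at the centre of this pathway, was at -0.25 and passed with the mean of its probe sets, at -0.34 (adjusted p = 0.0325). Herpud1, a scaffold of the HRD1 complex, was at -0.27 in the probe set read and at 0.18 in its other one, so its direction depends on the probe set. Sel1l, the partner of HRD1, was at 0.03 in the probe set read, but its 4 other sets were lower in Pparg ldi/+, at -0.16, -0.14, -0.36 and -0.23, and their mean with it was -0.17, so its direction also depends on the probe set. Derl2 was at 0.05.

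Of the 3 sensors and XBP1, the transcript of 1 rose (25%, against 16.3% of all tested genes). Atf6 encodes the sensor that is cut and moves to the nucleus, and its signal was 983, 963 and 973 in Pparg ldi/+ and 774, 793 and 813 in wild type. Both groups were tight and did not overlap. The rise was 1.22-fold (log2 0.28, interval 0.09 to 0.48, adjusted p = 0.0310), and it was the smallest of those that passed. The call was lost when any array other than wild-type array 3 was left out, with differences of 0.27 to 0.29 and adjusted p of 0.0994, 0.0745 and 0.0898 without Pparg ldi/+ arrays 1, 2 and 3, and 0.0790 and 0.0553 without wild-type arrays 1 and 2. It was lost as well with the mean of its probe sets, at 0.22 (adjusted p = 0.186), and with unscaled signals, at 0.32 (adjusted p = 0.0799).

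Eif2ak3, which encodes PERK, had signals of 923, 875 and 851 in Pparg ldi/+ and 875, 963 and 960.3 in wild type. The groups overlapped, and the difference was -0.08 (interval -0.28 to 0.13). Ern1, which encodes IRE1, had 859, 850.5 and 735 against 657, 659 and 885, again with overlap because wild-type array 3 was the highest of all. Its difference was 0.16 (interval -0.15 to 0.47). Other bright probe sets of Ern1 differed by 0.29 and 0.26, and the dim ones by 0.02 and -0.35. Xbp1 had 8636, 9323 and 8824 against 10144, 8222 and 9395, an overlap in both directions, with a difference of -0.05 (interval -0.24 to 0.15). Another of its probe sets, nearly as bright, differed by 0.13, and the rest by -0.04 and 0.27. The direction of Xbp1 therefore depends on the probe set. IRE1 acts by splicing Xbp1 mRNA and all 3 sensors are switched on as proteins, so these transcript signals do not report their activity.

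In the ATF4 branch, 3 of 7 members rose and 1 fell, with differences from -0.93 to 2.01. These are shares of 42.9% and 14.3%, against 16.3% and 16.4% of all tested genes. Whether so small a set differs from those shares was not tested. Atf4 encodes the transcription factor that is translated when PERK or related kinases are active. Its signal was 2835, 2984 and 2792 in Pparg ldi/+ and 2318, 2089 and 1929 in wild type. The groups did not overlap, and the rise was 1.36-fold (log2 0.44, interval 0.24 to 0.64, adjusted p = 0.00486). With the mean of its probe sets, 1 of which was dim, the difference was 0.25 and did not pass (adjusted p = 0.0741). The dim set differed by -0.07, and the remaining one, a bright x_at set, by 0.39.

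Atf3 had the largest difference of all members. It encodes a transcription factor of the same family that ATF4 and many other stress and inflammatory signals induce. Its signal was 1509, 1344 and 1592 in Pparg ldi/+ and 347, 311 and 375 in wild type, and the lowest mutant array was several times the highest wild-type one. It rose 4.02-fold (log2 2.01, interval 1.75 to 2.26, adjusted p = 6.29e-06). Ddit3 encodes CHOP, which promotes death of cells under lasting ER stress and blocks C/EBP factors. Its signal was 1083, 1033 and 1021 against 479.6, 691 and 519, with no overlap, and it rose 1.83-fold (log2 0.87, interval 0.56 to 1.18, adjusted p = 0.00143). With the mean of its probe sets, the second of which was dim and differed by 0.14, the difference was 0.51 and still passed (adjusted p = 0.0445).

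Sesn2, a stress-induced gene whose product restrains the growth kinase complex mTORC1, was the member that fell. Its signal was 469, 506 and 409.6 in Pparg ldi/+ and 896, 893 and 934 in wild type. Every mutant array was far below every wild-type array, and the fall was 1.91-fold (log2 -0.93, interval -1.18 to -0.69, adjusted p = 0.000285). Its other probe set differed by -0.71. The remaining members of the branch did not pass. Trib3, a pseudokinase induced by ATF4 and CHOP, was at -0.37 (interval -0.95 to 0.22). Wild-type array 3 read 484 and the other wild-type arrays 251 each. Without wild-type array 3 the difference of Trib3 was -0.078. Its other probe set, an x_at set slightly brighter over the 6 arrays, differed by -0.05. Chac1, which breaks down glutathione, was at -0.10 (interval -0.54 to 0.33), and Ppp1r15a, the phosphatase subunit GADD34 that ends the translation block, at 0.09 (interval -0.27 to 0.45). The intervals of Trib3 and Chac1 exclude a rise as large as that of Ddit3.

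With Pparg ldi/+ array 3, which lacked the epididymal transcripts, set alone against the wild-type arrays, the 9 members kept their direction. Atf3 was at 2.11 (adjusted p = 0.000784), Manf at 0.73 (adjusted p = 0.0379) and Sesn2 at -1.09 (adjusted p = 0.00503), and these 3 passed. Sdf2l1 was at 0.93, Ddit3 at 0.84, Creld2 at 0.70, Atf4 at 0.40, Edem2 at 0.33 and Atf6 at 0.28, and their adjusted p lay between 0.0512 and 0.288. The lone array is assumed in this fit to vary like the wild-type ones, and in it 733 of all genes rose and 878 fell. Without Pparg ldi/+ array 1, without array 2 and without array 3 in turn, 7, 5 and 5 members rose, while 1294, 1490 and 1415 of all genes rose, fewer than the 1831 with 6 arrays. The call of Sdf2l1 ended in each of these fits and without wild-type array 2, with adjusted p of 0.0599, 0.0519, 0.0504 and 0.0503 and differences of 0.94 to 0.98. Its difference moved most with the wild-type arrays, to 1.24 without array 1 (adjusted p = 0.00344) and 0.63 without array 3 (adjusted p = 0.0183), and it passed in both.

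**Figure D4:**
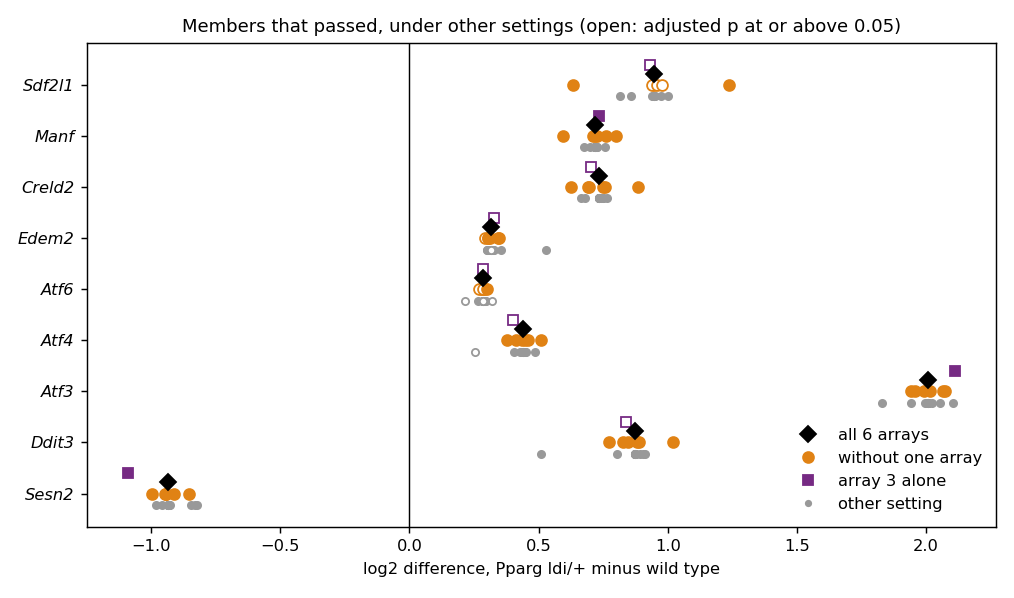
Log2 difference of the 9 members that passed, with all 6 arrays (diamonds), without each array in turn (circles), with Pparg ldi/+ array 3 alone (squares) and under the other settings (small dots). Open symbols did not pass at adjusted p under 0.05. All 9 genes keep their direction, and Manf, Atf3 and Sesn2 have no open symbol.

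The rest of the pathway was read from 5 further lists, which share no gene with the members. The background for each list is that 16.3% of all tested genes rose and 16.4% fell. The translocon and signal peptidase list, whose genes bring new proteins into the ER, had the largest share of rises among these 5, 34.8%: 8 of 23 rose and 2 fell, with a median of 0.18. Sec11c, a catalytic subunit of the signal peptidase, rose 1.64-fold (adjusted p = 0.000233), and Ssr4, of the translocon-associated complex, rose 1.44-fold (adjusted p = 0.000685). Sec61a2 fell 1.35-fold (adjusted p = 0.0152) and Sec62 fell 1.23-fold (adjusted p = 0.0186). For 11 of these 23 genes every Pparg ldi/+ array was above every wild-type array (47.8%, against 23.6% of all genes). For 3 every Pparg ldi/+ array was below (13.0%, against 24.0%).

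Of 28 further ER folding and disulfide enzymes tested, 4 rose and 2 fell, with a median of 0.06. Pdia5 rose 1.45-fold and Sdf2, the paralogue of Sdf2l1, rose 1.25-fold, from 2497 ± 129 to 3122 ± 286 (SD, n = 3; adjusted p = 0.0239). Fkbp9, a prolyl isomerase, fell 1.64-fold, from 3800 ± 78.0 to 2311 ± 83.1 (adjusted p = 0.000111), and Serpinh1, the collagen chaperone, fell by 0.49 on the log2 scale (adjusted p = 0.0137). Of 25 other degradation genes, 4 rose and 3 fell, with a median of -0.04. Ube2g2, a ubiquitin-conjugating enzyme, rose 1.45-fold and Faf2 1.36-fold, while Fam8a1, a component of the HRD1 complex, fell 1.41-fold and Ngly1, which strips sugars from exported glycoproteins, fell 1.34-fold. The adjusted p of these 4 lay between 0.00117 and 0.00650. Derl3, which is also on the plasma cell list, read 270.4 and 259 in Pparg ldi/+ arrays 1 and 2, 109 in array 3 and 104 to 115 in wild type. It was high in the arrays with epididymal transcripts only and did not pass.

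Of 23 other stress sensors and regulators, 4 rose and 2 fell, with a median of 0.06. Wfs1, an ER membrane protein whose loss causes Wolfram syndrome, rose 1.62-fold (adjusted p = 0.000498), and Casp12, an ER-associated caspase of rodents, rose by 0.68 on the log2 scale (adjusted p = 0.000965). Bbc3, the death gene also called Puma, fell 1.61-fold (adjusted p = 0.0313), and Eif2b5, a subunit of the exchange factor that PERK signalling inhibits, fell 1.31-fold (adjusted p = 0.0177).

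Other ATF4 targets moved in both directions. Of 31 tested, 8 rose and 7 fell, and the median was 0.09. Phgdh, the first enzyme of serine synthesis, fell 4.19-fold, from 9556 ± 1140 to 2256 ± 290 (SD, n = 3; adjusted p = 7.57e-06), in an x_at probe set, which can also bind related transcripts. Eif4ebp1, which encodes the translation repressor 4E-BP1, fell 2.99-fold (adjusted p = 2.54e-05), and Asns, asparagine synthetase, fell 2.44-fold (adjusted p = 4.61e-05). The aminoacyl-tRNA synthetase genes Nars and Aars rose 1.54-fold and 1.52-fold (adjusted p = 0.000591 and 0.000869). Slc7a5, an amino acid transporter, rose 2.23-fold (adjusted p = 0.00362), while Slc3a2, which encodes its partner chain, fell 1.41-fold (adjusted p = 0.00385). Asns, Slc7a5 and Slc3a2 are named because of their values. Fgf21, Slc7a11 and Slc7a3 were too dim to be tested.

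**Figure D5:**
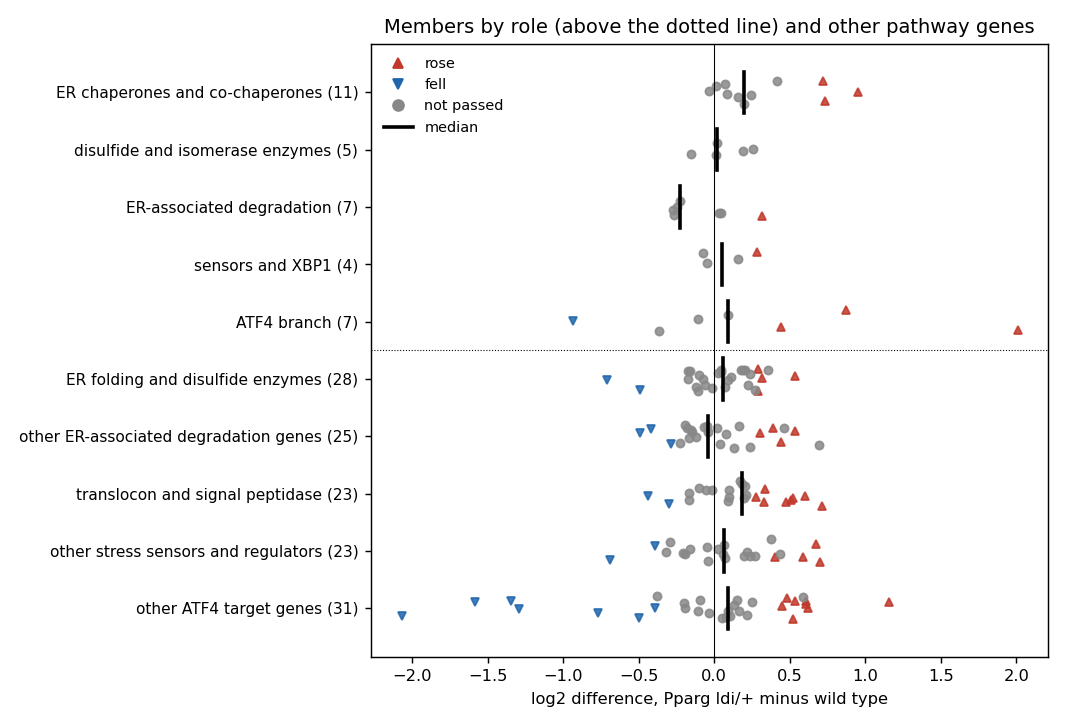
Log2 difference of every tested gene, by role for the 34 members (above the dotted line) and by list for other pathway genes (below it), with the number of genes in brackets and the median as a black bar. The ATF4 targets spread widest, from -2.07 to 1.16, and the medians of the roles and lists lie between -0.23 and 0.20.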

How the data were processed

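Transcripts of epididymal white fat were measured on 6 Affymetrix MOE430v2.0 arrays, 3 of Pparg ldi/+ and 3 of wild-type mice, grouped by the sample titles. The deposited values are linear signal intensities, made with MAS5 per the submitters' processing notes of 2 of the 6 samples. Neither a MAS5 version nor a target for scaling was stated, and no detection calls were used. Each array was scaled to a trimmed mean of 500 (2% off each end), 32 was added and log2 taken. Symbols from the platform annotation were updated through gene numbers in a RefSeq table of GRCm38.p6. A gene was read from its brightest probe set, x_at sets only where no other existed. Genes with a mean log2 value below 7.46, the median of all probe sets, were not tested. limma 3.58.1 in R 4.3.3 (lmFit, eBayes with intensity trend, no covariates) compared genotypes over 11201 genes, two-sided, adjusted p-values after Benjamini and Hochberg and a 0.05 threshold; it was tested on simulated data. An exact permutation test of 3 against 3 arrays cannot go below p = 0.1.

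The members, roles, lists, markers and alternatives were chosen with earlier results of these data known. All members are named; of each other list the 2 genes with the smallest p in each direction among those past the threshold are named, and the exceptions are marked. Array number limits the precision. Promoter sequences are from RefSeq (GRCm38.p6). The number in the titles did not pair the arrays: the deviations of same-numbered arrays from their group means correlated at -0.13, -0.09 and -0.09 across genes.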

Additional observations from a re-analysis of the deposited data

How the results depend on the processing

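The alternatives changed the offset, scaling, filter, variance model, probe set, threshold and arrays used. The 9 members that passed kept their direction in every alternative, and Manf, Atf3 and Sesn2 passed in every one at a threshold of 0.05. The count of members that rose, 8, was 5 at a threshold of 0.01 and 2 with Pparg ldi/+ array 3 alone, and 5 to 9 without 1 array. Among chaperone, folding and degradation members the 4 rises became 2, 1 and 2 to 5, and the 3 rises of the ATF4 branch became 1 with array 3 alone. With quantile normalisation 10 members rose, 6 of them chaperone, folding or degradation members, and with the mean of probe sets 6 members rose. Among all genes 1874 rose and 1868 fell with quantile normalisation, and 1903 rose and 1868 fell with array weights. With the mean of probe sets 1527 rose and 1553 fell, of 10099 genes tested. The count that fell, 1, was 3 with array weights and 3 with the mean of probe sets, where 2 degradation members fell in each, and 1 to 2 without 1 array (0 to 1 in that group). With the title number as a replicate block, 6 members rose and 1 fell, while 1568 of all genes rose and 1598 fell. Edem2 (0.32) and Atf6 (0.28) lost their calls in that fit (limma adjusted p = 0.0534 and 0.0742), and no other member's call changed. No array correlated best with its own number.

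Differences near 0 that passed nowhere changed sign. Unscaled, Dnajb9 was 0.016 and Xbp1 0.0064. With the mean of probe sets, Sel1l was -0.17 and Xbp1 0.080. With array 3 alone, Dnajb9 was 0.056, Dnajc3 -0.049, Chac1 0.10 and Ppp1r15a -0.26. Without 1 array, Dnajc3 ranged from -0.089 to 0.090, Pdia6 from -0.062 to 0.13, Ppp1r15a from -0.058 to 0.27, P4hb from -0.016 to 0.040, Xbp1 from -0.13 to 0.022, Chac1 from -0.25 to 0.070, Sel1l from -0.0067 to 0.088 and Derl2 from -0.019 to 0.12. Without detection calls, no member could be said to lie above or below background. Unscaled signals moved the median of all genes from -0.00 to 0.04, and the rises and falls among all genes from 1831 and 1837 to 1792 and 1331; a threshold of 0.01 gave 1085 and 1153, and array 3 alone 733 and 878. The causes were not tested.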
